A study of Hydra viridissima with 4 samples.

Results

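In the green hydra Hydra viridissima, 309 regions of open chromatin were called in both libraries of animals without algae and in neither library of animals that carry them. They were taken from 117973 union regions, which were made by merging the peaks of all 4 deposited lists wherever peaks shared at least 1 bp. A region was kept when both aposymbiotic lists had an overlapping peak with a -log10 q of at least 4, q being the caller's p-value adjusted within a list, and when neither symbiotic list had any overlapping peak. The 309 regions made up 0.262% of the union regions. The regions were selected on the presence of peaks and on the -log10 q, so their strength in the aposymbiotic lists and their lack of symbiotic peaks are descriptions and not findings. Only strict regions of this kind are called aposymbiotic-only below, and symbiotic-only regions are those that met the same rule with the conditions exchanged.

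Green hydra is a freshwater polyp whose gastrodermal epithelial cells house unicellular green algae, which share photosynthetic products with the host. Animals can live without the algae, and such aposymbiotic polyps are pale. In ATAC-seq the transposase Tn5 inserts adapters where DNA is not wrapped tightly in nucleosomes, so peaks of reads mark accessible DNA, which in animals often lies at promoters, enhancers and insulators. A peak called with one treatment and not with another shows a difference in what passed the caller's threshold, and DNA without a peak can still be partly accessible.

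All animals belonged to clone 2 of H. viridissima and were kept at 24 °C on brine shrimp. The aposymbiotic group held 2 biological replicates of clone 2 without algae, and the green or symbiotic group held 2 biological replicates of clone 2 with algae. The labels give 50 large animals without buds or gonads, last fed 2 days earlier and held in filtered medium with penicillin and streptomycin. Cells were taken from whole animals, so all cell types of the polyp were mixed, and fewer cells of a type and less open DNA per cell cannot be told apart. A single clone limits what the regions say about other green hydra. Both groups shared the clone, the diet and the antibiotics, and no expression data or marker genes were in the files to check which cells were recovered.

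The lists differed widely in length. Aposymbiotic replicates 1 and 2 had 21481 and 78594 peaks, and symbiotic replicates 1 and 2 had 31072 and 87128. The genome-wide background, recovered from the steps between fold enrichments, was 9.39 and 16.69 tags in the aposymbiotic and 6.80 and 13.46 tags in the symbiotic libraries (the labels do not say whether fragments or extended reads were piled up, and tags here means either). Total read numbers are unknown. Peak names carry pairs of numbers that could be a month and a day. The pair was 8 and 17 in the aposymbiotic and 8 and 18 in the symbiotic list of replicate 1. In the lists of replicate 2 it was 8 and 31 without algae, then 9 and 1 with algae. If these are dates, none was shared by both conditions, and the aposymbiotic date came first in both replicate numbers. The effects of that order and of algae cannot be told apart. The larger step in date lay between the replicate numbers, each of which held both conditions.

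The aposymbiotic-only regions were a small remainder of the DNA that was clearly open without algae. Of 16387 regions called in both aposymbiotic lists, 8446 reached a -log10 q of at least 4 in both. Among these 8446 regions, 6576 (77.9%) also had a peak in both symbiotic lists. Another 1385 (16.4%) had a peak in symbiotic replicate 2 only and 176 (2.08%) in symbiotic replicate 1 only. The remaining 309 (3.66%) had none. The longer symbiotic list, that of replicate 2, thus took away far more candidates than the shorter one. Without symbiotic replicate 1 the rule kept 489 regions, and without symbiotic replicate 2 it kept 1718. The shorter aposymbiotic list, that of replicate 1, limited the set in the same way, because the rule kept 10785 regions without it and 901 without aposymbiotic replicate 2.

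The threshold cut through a continuous range of values. At any strength, 1204 regions (1.02% of the union regions) had peaks of both aposymbiotic and of neither symbiotic list, and 895 of them fell below the -log10 q of 4. The low value was in replicate 1 alone in 468 of these, in replicate 2 alone in 108 and in both lists in 319. The 3 regions just inside started at 17321428 on scaffold 10, at 11241096 on scaffold 12 and at 20007250 on scaffold 2. Their smaller -log10 q was 4.01, 4.02 and 4.03. The 3 regions just outside started at 17948776 on scaffold 7 and at 6812086 and 3077166 on scaffold 13. Their smaller -log10 q was 3.998, 3.99 and 3.96, and their folds of 2.10 to 2.99 overlapped those just inside, 2.16 to 2.89.

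The strongest aposymbiotic-only region was a compact site of 123 bp on scaffold 2 at 21898879 to 21899001. The pileup at its summit was 59 tags in aposymbiotic replicate 1 and 91 tags in aposymbiotic replicate 2, which is a fold enrichment over background of 5.77 and 5.20. Its -log10 q was 24.1 and 33.5 in these libraries, and neither symbiotic library had a peak there. The site was isolated, since the nearest peak of either symbiotic list was 5742 bp away and belonged to a region called in all 4 lists. The summits of the 2 aposymbiotic lists were 4 bp apart.

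A similar isolated site lay on scaffold 8 at 15706373 to 15706495. It had 55 and 82 tags in aposymbiotic replicates 1 and 2, with folds of 5.39 and 4.69, and its nearest symbiotic peak was 7457 bp away. The summits were 14 bp apart. Both sites had the genome-wide background around them, so neither stood in a stretch of raised signal.

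The region on scaffold 10 at 8509143 to 8509283 had the largest replicate 2 fold among the members, 5.48 from 96 tags. In replicate 1 it had a fold of 5.20 and 53 tags, and both lists placed the summit on the same base. Symbiotic replicate 2 had its nearest peak 1023 bp away, and symbiotic replicate 1 had its nearest 19694 bp away.

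The region on scaffold 12 at 13183528 to 13183677 had folds of 5.29 and 5.03 in aposymbiotic replicates 1 and 2, from 54 and 88 tags. It was not isolated, because a peak of symbiotic replicate 2 lay 293 bp away and the nearest union region 162 bp away. The remaining pair were a region of scaffold 2 (12182754 to 12182937), with 50 and 66 tags and folds of 4.91 and 3.79, and a region of scaffold 4 (7594538 to 7594683), with 50 and 75 tags and folds of 4.91 and 4.30. These 6 regions had the highest lower percentile of -log10 q in the 2 aposymbiotic lists, and all 6 were narrow, between 123 and 184 bp.

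**Figure D1:**
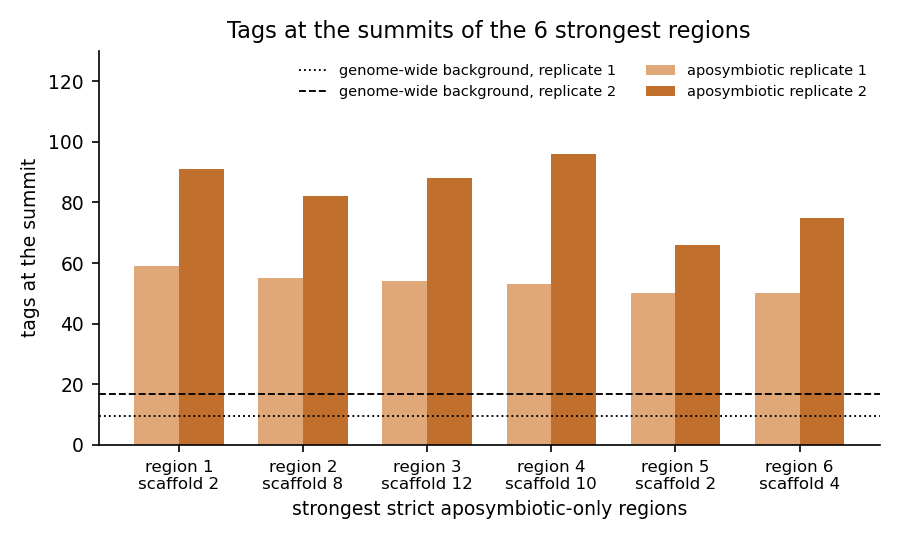
Tags at the summit (vertical axis) of the 6 strongest aposymbiotic-only regions in aposymbiotic replicates 1 and 2 (bars), in the order scaffold 2 at 21898879, scaffold 8, scaffold 12, scaffold 10, scaffold 2 at 12182754 and scaffold 4. Horizontal lines mark the genome-wide background of 9.39 tags in replicate 1 and 16.69 in replicate 2. Every bar lies between 50 and 96 tags, and no symbiotic bar is drawn because the symbiotic lists had no peak there.

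Most members were far weaker than these 6. The fold enrichment over the 309 regions ran from 2.35 to 5.77 with a median of 3.01 in aposymbiotic replicate 1, and from 1.91 to 5.48 with a median of 2.67 in replicate 2. Tags at the summit ranged from 28 to 59 (median 34) in replicate 1 and from 39 to 102 (median 54) in replicate 2. The 10256 regions called in all 4 lists (8.69% of the union regions) include weaker calls, down to a -log10 q of 2. Held to a -log10 q of at least 4 in both aposymbiotic lists as the members were, 6576 of them were left, with median folds of 3.56 and 3.58 and highest folds of 23.9 and 21.8. Below, these 6576 regions are called shared regions with the same floor. They had the higher median folds, so the floor is matched and the strength is not. The members had no fold above 5.77. The folds of both sets carry the floor that the rule set.

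Members ranked in the upper part of both lists. The median percentile of -log10 q was 69.9 within the list of replicate 1 and 80.6 within that of replicate 2, and 287 of the 309 (92.9%) lay above the median of both lists. This follows from the threshold. The fold was higher in replicate 1 for 237 members (76.7%), against 55.9% of the shared regions with the same floor. The shallower replicate 1 needs a higher fold to reach the same -log10 q. This floor applied to both sets, and the cause of the difference between them was not tested. Across the 309 members the folds of the 2 libraries rose together, with a Spearman correlation of 0.512. It was 0.784 over the 6576 shared regions with the same floor. The points share the same libraries, and the threshold trims both axes.

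**Figure D2:**
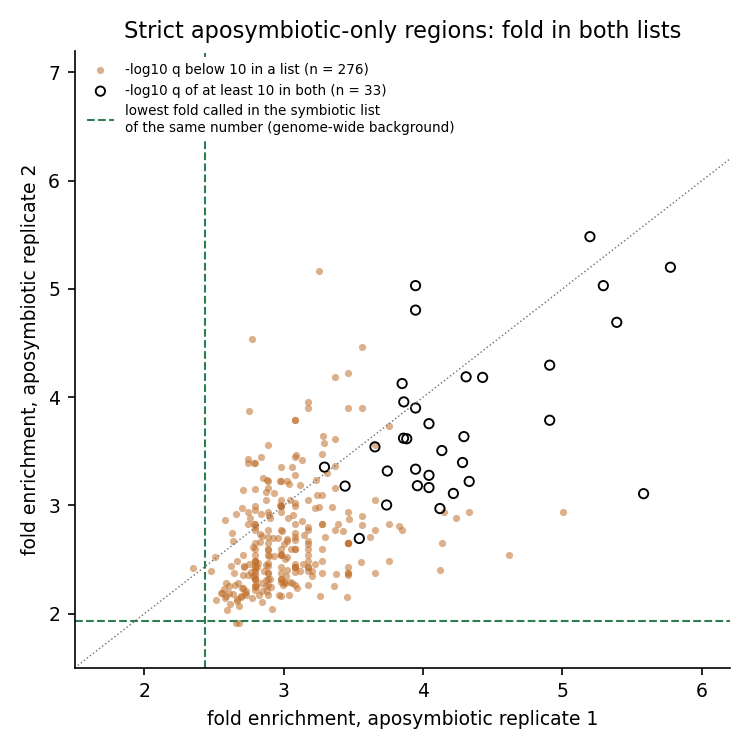
Fold enrichment of each of the 309 aposymbiotic-only regions in aposymbiotic replicate 1 (horizontal axis) and replicate 2 (vertical axis). Open circles are the 33 regions with a -log10 q of at least 10 in both lists, the dotted line marks equal folds, and dashed lines mark the lowest fold of a peak over the genome-wide background in symbiotic replicate 1 (2.43, vertical) and symbiotic replicate 2 (1.94, horizontal). Points crowd at folds near 3.01 and 2.67, and most lie below the dotted line.

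The symbiotic lists hold no value at these regions, so only a limit can be given. The lowest fold called over the genome-wide background was 2.43 in symbiotic replicate 1 and 1.94 in symbiotic replicate 2. Folds above both values were found in 306 of the 309 members, and the other 3 stood where the local background was 1.70 to 2.00 times the genome-wide value. The limit was also set for each member separately, as the fold that the symbiotic library of the same number needed if its background were raised around the member as in the aposymbiotic library. Every one of the 309 members then had an aposymbiotic fold above the limit in both numbers. The counts of 306 and 309 follow largely from the rule, because members needed a -log10 q of at least 4 while symbiotic peaks were listed from 2. They are descriptions and not findings. The margin was small for most. The median ratio of aposymbiotic fold to limit was 1.27 in replicate 1 and 1.43 in replicate 2. Both ratios reached 1.5 in 40 members (12.9%). For the strongest region on scaffold 2 at 21898879 to 21899001, the ratios were 2.37 and 2.69. A symbiotic signal just under the limit would leave no trace in the lists. Whether accessibility was lower at a typical member with algae, and by how much, was therefore not measurable.

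The background around the members varied in step between the 2 aposymbiotic libraries. It was at the genome-wide value, or no more than 0.5% above it, at 140 members (45.3%) in replicate 1 and at 123 (39.8%) in replicate 2. The same shares were 34.4% and 33.3% of the shared regions with the same floor. The ratio of local to genome-wide background reached at most 1.97 in replicate 1 and 2.06 in replicate 2, and it correlated between the libraries at a Spearman value of 0.877 over the 309 members, which share the same genomic surroundings in both. A total of 87 members stood in surroundings raised more than 1.2 times in both libraries. Their median folds were 2.84 and 2.42, against 3.18 and 2.77 for the 114 members at the genome-wide level in both. In tags at the summit the order was the other way round, with medians of 39 and 62 tags for the former and 32 and 48 for the latter.

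Among regions of both aposymbiotic lists, the share without a symbiotic peak was level below a -log10 q of 7 and fell above it. Of the 1804 regions whose smaller aposymbiotic -log10 q was at least 4 and below 5, 109 (6.04%, 95% exact binomial interval 4.99 to 7.24) had no symbiotic peak. The share was 6.11% (123 of 2013) from 5 to below 7, 3.18% (44 of 1384) from 7 to below 10 and 2.21% (26 of 1177) from 10 to below 15. It was 0.622% (4 of 643) from 15 to below 20 and 0.211% (3 of 1425) at 20 and over. Intervals here and below cover counting error only. Of the regions at 20 and over, 99.1% had a peak in both symbiotic lists. A decline of this kind can arise from thresholds alone, since a strong region is more easily called in every library. How much of it did so was not tested.

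The same rule with the conditions exchanged gave 1094 symbiotic-only regions, or 0.927% of the union regions and 8.62% of the 12692 regions with a -log10 q of at least 4 in both symbiotic lists. Among symbiotic regions the share without any aposymbiotic peak was 16.9% (571 of 3375) from 4 to below 5, 10.5% from 5 to below 7 and 4.88% from 7 to below 10. From 10 to below 15 it was 1.19% (16 of 1345, interval 0.681 to 1.92), against 2.21% (interval 1.45 to 3.22) on the aposymbiotic side, and these intervals overlap. From 15 to below 20 it was 0.462% (3 of 650) against 0.622% (4 of 643). At 20 and over it was 0.207% (3 of 1448) against 0.211% (3 of 1425). With the threshold raised to a -log10 q of 10, 33 aposymbiotic-only and 22 symbiotic-only regions were left. The -log10 q grows with depth at a given fold, and the aposymbiotic libraries had the higher background within both replicate numbers. With a fold of at least 3 in both lists in place of the -log10 q, the counts were 65 aposymbiotic-only and 293 symbiotic-only regions. With a fold of at least 4 they were 7 and 11. Symbiotic-only regions were thus more numerous at both fold thresholds. At a -log10 q of 10 the order of the counts was the other way round, but that rested mainly on the class from 10 to below 15. A fold threshold is not neutral between the lists either. The median fold over all peaks was 2.622 and 2.211 in aposymbiotic replicates 1 and 2. In symbiotic replicates 1 and 2 it was higher, at 2.932 and 2.496. The fold counts were not set against all regions reaching the same folds, so whether they exceed this list-wide difference was not tested. With all lists cut to the length of the shortest, the counts were 848 aposymbiotic-only and 1374 symbiotic-only regions, so the ratio of the counts also moved with list length. With 2 libraries per group no exact permutation test can give a p below 0.333, so the counts of the conditions were not tested.

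**Figure D3:**
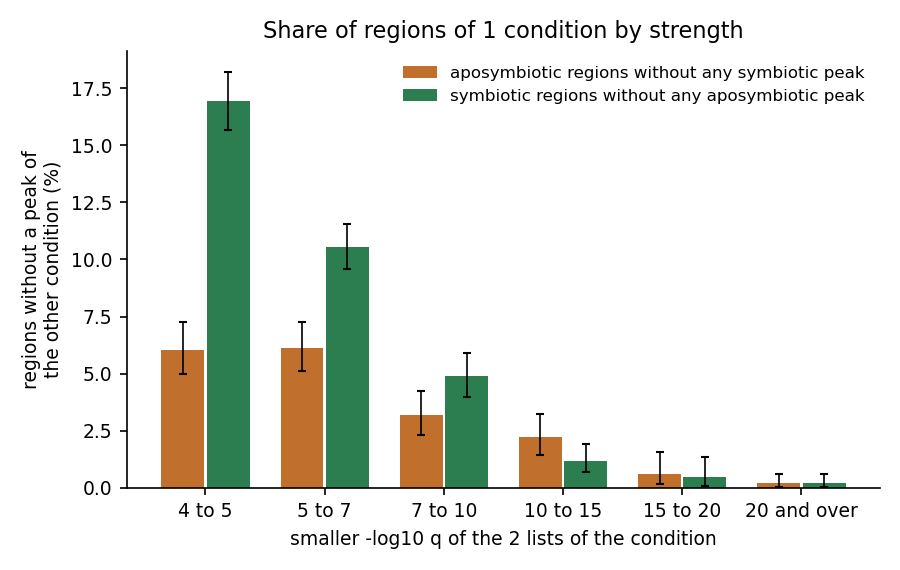
Share of regions without any peak of the other condition (vertical axis, percent) by the smaller -log10 q of the 2 lists of a condition (horizontal axis), for aposymbiotic and symbiotic regions, with 95% exact binomial intervals that cover counting error only. Symbiotic bars are the taller below a -log10 q of 10, as in 16.9% against 6.04% in the weakest class. From 10 to below 15 the aposymbiotic bar is the taller (2.21% against 1.19%), with overlapping intervals. At 20 and over the bars are nearly level (0.211% aposymbiotic, 0.207% symbiotic).

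The 33 aposymbiotic-only regions with a -log10 q of at least 10 in both lists are described together. They lay on 11 scaffolds, were 106 to 406 bp wide with a median of 166 bp, and had median folds of 4.04 in replicate 1 and 3.62 in replicate 2. Their summits carried 39 to 59 tags in replicate 1 and 54 to 98 in replicate 2. All 33 had their 2 summits within 50 bp of each other, at a median distance of 9 bp. A symbiotic peak lay within 1 kb of 18 of them. By comparison, the 109 members with a smaller -log10 q below 5 had median folds of 2.79 and 2.37, a median width of 200 bp and summits a median of 31 bp apart.

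Members were short. Their width ranged from 94 to 633 bp with a median of 186 bp, and together they covered 67.8 kb. Shared regions with the same floor had a median of 393 bp, symbiotic-only regions 207.5 bp and all union regions 169 bp. Merging widens a region with each list that adds a peak, so regions of 4 lists are wider by construction. A total of 97 members were at most 150 bp wide and 22 were wider than 400 bp.

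The widest member lay on scaffold 7 at 9741205 to 9741837 and spanned 633 bp. Its folds were 3.27 in replicate 1 and 2.83 in replicate 2. The lists placed the strongest summit 410 bp apart, the largest distance in the set, so the 2 libraries were strongest at different parts of this region. It also had a region called in all 4 lists 319 bp away. The next widest, on scaffold 3 at 4591237 to 4591855, had 1 summit in replicate 1 and 4 in replicate 2, but the strongest summits were only 4 bp apart, with folds of 3.29 and 2.71. Another member of scaffold 3, from 13967887 to 13968503, had a fold of 3.56 in replicate 1 and 4.47 in replicate 2, with summits 349 bp apart. The fourth widest, from 17019780 to 17020374 of scaffold 6, had folds of 3.55 and 2.48 and summits 9 bp apart. Of the 22 members over 400 bp, 21 had several summits in at least 1 list, and their summits were a median of 113 bp apart.

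The rule asked only that peaks of both aposymbiotic lists fall in the same region, and did not use the position of the summits. Summits of the 2 aposymbiotic lists lay a median of 17 bp apart and within 50 bp in 229 members (74.1%, interval 68.8 to 78.9). Over the shared regions with the same floor the same share was 71.4% (interval 70.2 to 72.4) at a median of 19 bp. This share lies within the interval of the members. Over symbiotic-only regions, between the symbiotic lists, it was 67.5% at 24.5 bp. The share depends on the -log10 q floor. Without the floor it was 55.9% over the 1204 aposymbiotic-only regions of any strength and 58.1% over the 10256 regions called in all 4 lists. Wide regions with several summits leave more room for distance. A total of 217 members (70.2%) consisted of 1 peak with 1 summit in both lists, against 35.7% of the shared regions with the same floor. Among such simple regions the share within 50 bp was 83.4% (181 of 217, interval 77.8 to 88.1) for the members. For the shared regions with the same floor it was 90.8% (interval 89.5 to 91.9), so here the members were the lower. Strength was not matched in this comparison. All shared regions with the same floor had median folds of 3.56 and 3.58, against 3.01 and 2.67 for all members. No test was made, since regions are not replicates. The 39 members with summits over 100 bp apart were wider, with a median of 343 bp, and had folds of at most 3.75 in replicate 1 and 4.47 in replicate 2.

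Several summits in 1 peak were more common in the deeper library. The strongest peak of a member had more than 1 summit in 27 cases (8.74%) in replicate 1 and in 74 (23.9%) in replicate 2, and 7 members joined several peaks of 1 list. In 16 members a peak had 3 or more summits. These ranged in width from 280 bp, on scaffold 6 at 18509612 to 18509891, to the 633 bp of the region on scaffold 7. The member on scaffold 9 at 15925837 to 15926229 was the only one with 3 summits in both lists, with folds of 3.62 and 2.71.

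Members mostly lay beside DNA that was open in symbiotic animals. The gap to the nearest symbiotic peak had a median of 635 bp. It was at most 200 bp in 62 members (20.1%), at most 1 kb in 208 (67.3%, interval 61.8 to 72.5) and at most 5000 bp in 293 (94.8%). Most of this came from the longer list. A peak of symbiotic replicate 2 lay within 1 kb of 199 members (64.4%) and one of symbiotic replicate 1 within 1 kb of 98 (31.7%). Without symbiotic replicate 2, the share with a symbiotic peak within 1 kb was 32.3% of the 1718 regions then kept.

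Other aposymbiotic regions lay as close or somewhat closer. A symbiotic peak lay within 1 kb of 75.2% of the 895 aposymbiotic-only regions below the threshold and of 72.5% of the regions called in aposymbiotic replicate 2 alone. In the mirrored comparison, an aposymbiotic peak lay within 1 kb of 62.5% of the symbiotic-only regions, at a median gap of 660.5 bp. Another union region of any kind lay within 1 kb of 79.0% of the members, 77.9% of the regions called in all 4 lists and 80.5% of all union regions. The members thus stood in surroundings about as crowded as those of other open regions.

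**Figure D4:**
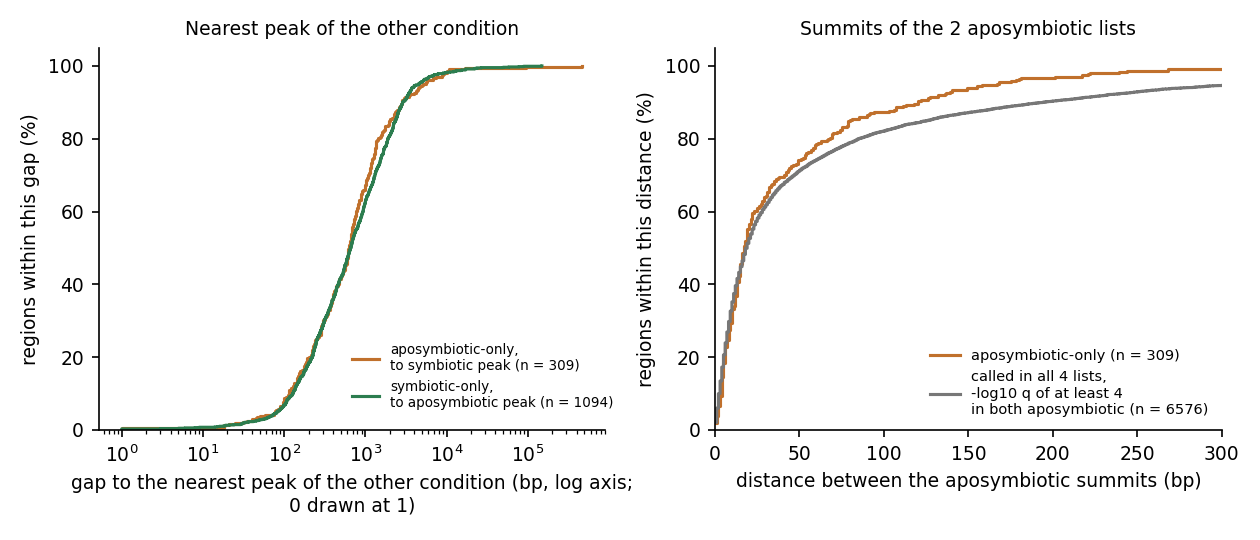
Left, cumulative share of regions (vertical axis, percent) by the gap to the nearest peak of the other condition (horizontal axis, bp, log scale), for the 309 aposymbiotic-only and the 1094 symbiotic-only regions, whose medians are 635 and 660.5 bp. Right, cumulative share by the distance between the strongest summits of the 2 aposymbiotic lists (bp), for the 309 members and the 6576 regions called in all 4 lists with a -log10 q of at least 4 in both aposymbiotic lists, with 74.1% and 71.4% within 50 bp.

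The neighbours themselves were of several kinds. Of the 208 nearest symbiotic neighbours within 1 kb, 141 were regions also called in an aposymbiotic list and 67 were called in symbiotic lists only. The most frequent neighbour, in 60 cases, was a region called in both replicate 2 lists alone. Next came 49 regions of symbiotic replicate 2 alone and 41 regions called in all 4 lists. The replicate 2 lists were the longer, with 78594 and 87128 peaks, and these classes were not counted around other regions. A region called in all 4 lists lay within 1 kb of 52 members (16.8%, interval 12.8 to 21.5). The same share was 16.6% for aposymbiotic-only regions below the threshold, 15.4% for regions of all 4 lists among themselves, 11.4% for symbiotic-only regions and 11.8% for all union regions.

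In some members the lack of a symbiotic peak rested on a very small gap. The member on scaffold 2 at 1961965 to 1962200, whose folds were 2.80 and 2.25, was separated by 1 bp from a peak of symbiotic replicate 1 with a fold of 2.65 that started at 1962202. The member of scaffold 6 from 1424103 to 1424257, whose folds were 2.84 and 2.71, was separated by 1 bp from a peak of symbiotic replicate 2 with a fold of 1.81. The member on scaffold 10 at 12829367 to 12829503 had folds of 2.98 and 2.54. Its neighbour 18 bp away, at 12829522 to 12829689, had a peak in both symbiotic lists with folds of 2.43 and 1.94, and no aposymbiotic peak. Also on scaffold 10, the member at 12687349 to 12687728, with folds of 2.79 and 2.83, lay 18 bp from a region called in all 4 lists. When peaks within 200 bp were merged, 251 regions met the rule, and when no symbiotic peak was allowed within 1 kb, 101 did.

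At the other end were members far from any symbiotic peak. The farthest, on scaffold 15 at 5856752 to 5856871, was 470764 bp away from one. It was 120 bp wide, with folds of 3.08 and 2.43 from 31 and 42 tags, and its summits were 4 bp apart. The next, a member of scaffold 16 from 141020 to 141130, had a gap of 94991 bp and folds of 2.89 and 3.17. Scaffolds 15 and 16 carried few open regions of any kind, 143 and 217 in all. On the well covered scaffold 2, the member at 15370635 to 15370802 was 16894 bp from a symbiotic peak, with a fold of 5.58 in replicate 1 (57 tags) and 3.11 in replicate 2 (54 tags). On scaffold 9 the member at 5771915 to 5772026 had folds of 3.95 and 3.90, summits 1 bp apart and a gap of 10688 bp. Only 13 members were more than 5000 bp from any other union region.

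Members were 0.262% of the union regions, and few stood next to each other. Another member lay within 1 kb of 4 of them, within 10000 bp of 10 and within 100000 bp of 80 (25.9%), and the median gap between neighbours on a scaffold was 240355 bp. Of the symbiotic-only regions, a larger set, 59.8% had another of their kind within 100000 bp. Whether members lay closer together or farther apart than their number alone would give was not tested.

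The closest pair lay on scaffold 10, at 643484 to 643662 and 643875 to 644009, with 212 bp between them. Both had a fold of 3.85 in replicate 1, from 39 tags each, and folds of 4.13 and 2.77 in replicate 2, from 72 and 48 tags. The next pair lay on scaffold 4, at 7594538 to 7594683, which is 1 of the 6 strongest regions, and at 7595044 to 7595339, 360 bp further on. The second of these had folds of 3.75 and 3.73 from 38 and 65 tags. The nearest symbiotic peak was 3003 bp from the first and 3509 bp from the second. The next pairs were 5476 bp apart on scaffold 13, starting at 3212426 and 3218117, and 6145 bp apart on scaffold 2, starting at 23497023 and 23503327. Their folds ran from 2.13 to 3.13. A further pair within 10000 bp lay on scaffold 9, starting at 2140671 and 2148917, with a gap of 8025 bp.

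Symbiotic-only regions were 0.927% of the union regions, and few lay close to a member. A symbiotic-only region lay within 1 kb of 2 members, within 5000 bp of 13 and within 10000 bp of 27 (8.74%). The same shares were not computed for other regions, so whether members and symbiotic-only regions keep apart was not tested. The closest was on scaffold 8. There the member at 14171183 to 14171359, with folds of 4.31 and 4.19 and 49 and 98 tags in aposymbiotic replicates 1 and 2, was followed after 597 bp by a symbiotic-only region at 14171957 to 14172109. That region had folds of 3.20 and 2.46 in symbiotic replicates 1 and 2. The member of scaffold 6 from 3027739 to 3027868 had folds of 2.83 and 2.74 and lay 988 bp from a symbiotic-only region at 3026618 to 3026750 with folds of 3.07 and 2.39. The next were on scaffold 5 at 14589519 to 14589727, with a gap of 1931 bp, and on scaffold 8 at 17677809 to 17678001, with a gap of 2431 bp.

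Members were spread over the genome. They lay on 17 of the 28 scaffolds with any peak, and 305 of the 309 lay on the 14 scaffolds that held 1000 or more union regions, at 1.11 members per Mb up to the last peak. Scaffold 2 held the most, 48 members or 15.5% (interval 11.7 to 20.1) of the set, while it held 11.8% of all union regions. Scaffold 1 held more DNA, 41.4 Mb up to its last peak, but only 25 members. Per 1000 union regions this was 3.46 (interval 2.55 to 4.59) on scaffold 2 and 1.84 (interval 1.19 to 2.71) on scaffold 1, and the 2 intervals overlap. Of symbiotic-only regions the same 2 scaffolds had 9.16 and 9.19 per 1000 union regions.

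Among the other large scaffolds the density ran from 1.91 members per 1000 union regions on scaffold 5 to 3.74 on scaffold 14, where only 8 members were found. Scaffolds 10 and 6 were near scaffold 2, with 3.58 and 3.34. On all 14 the interval held the overall value of 2.62. Scaffolds 15, 16 and 17 held 1, 2 and 1 members.

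**Figure D5:**
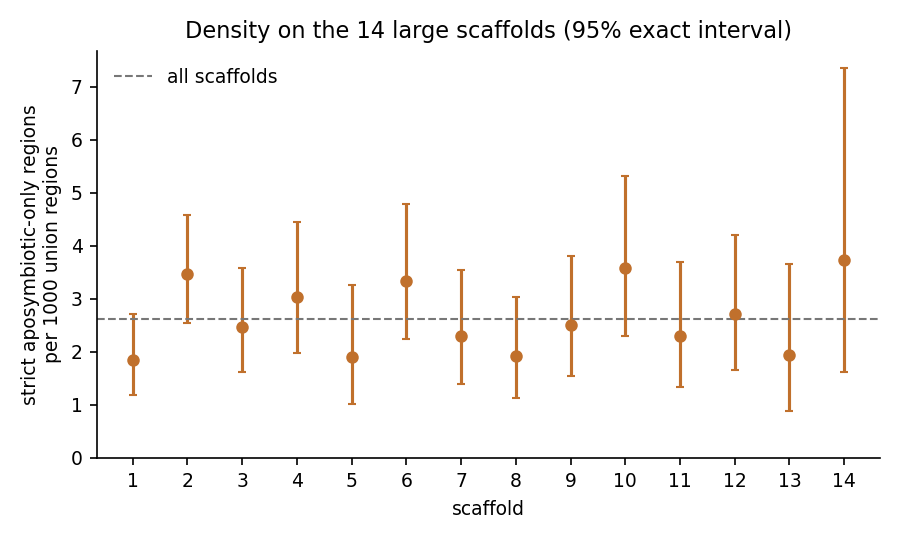
Aposymbiotic-only regions per 1000 union regions (vertical axis) on the 14 large scaffolds (horizontal axis), with 95% exact intervals that cover counting error only and a dashed line at the overall value of 2.62. Points run from 1.84 on scaffold 1 to 3.74 on scaffold 14, and every interval includes the dashed line.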

How the data were processed

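Open chromatin was measured by ATAC-seq in 2 aposymbiotic and 2 symbiotic libraries. The tools named in the submitters' processing notes are MACS3 3.0.4, Bowtie2 2.5.4, Trim Galore 0.6.10 and deepTools. No source used here gives their settings or the genome assembly. For each library the authors deposited 1 list of peaks in narrowPeak format, with a fold enrichment (ratio of summit pileup to estimated background) for each peak. The deposited lists also give a -log10 p-value, a -log10 q-value (all just above 2 or higher) and a score of 10 times the -log10 q. These are the authors' own values, used only to describe, rank or filter peaks.

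Lines with the same interval were taken as 1 peak with its strongest summit, and 10 lines of aposymbiotic replicate 2 without a summit position, none of a member, were given the middle of the peak. Summit pileups and local backgrounds were solved from fold and -log10 p, assuming a fold of pileup plus 1 over background plus 1. The solved values returned every member's listed -log10 p within 0.001. Gaps count the bases between intervals. Coordinates count from 1. The named regions are the 6 strongest by percentile of -log10 q, the 4 widest, the 4 closest pairs, the 4 farthest from and nearest to a symbiotic peak, the 3 on each side of the threshold, those with 3 or more summits, and the 4 nearest to a symbiotic-only region. Members, lists and comparisons were chosen with earlier results of these data known. Shared regions held to the same -log10 q were added as a comparison after seeing the data. Nothing was tested between conditions. Merging, gaps and pileups were tested on simulated data. Python 3.11.15, numpy 2.4.6, pandas 2.3.3 and scipy 1.17.1 were used. Genes and sequences were not analysed here.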

Additional observations from a re-analysis of the deposited data

How the results depend on the processing

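No paired analysis was possible because the members come from a presence rule and not from a test. The number of aposymbiotic-only regions was 1204 at a -log10 q of at least 2, 200 at 5 and 33 at 10. It was 101 with no symbiotic peak within 1 kb and 848 (symbiotic-only 1374) with lists of equal length, where the shortened symbiotic lists exclude fewer regions. With a fold of at least 3 or 4, chosen after seeing the data, it was 65 and 7. Leaving out 1 library gave 489 to 10785. Symbiotic-only regions numbered 3700, 523 and 22 at these -log10 q values, 410 with no aposymbiotic peak within 1 kb, 727 with 50% overlap of the 2 peaks, 293 and 11 with the folds, and 1358 to 20652 without 1 library. The share of members within 1 kb of a region called in all lists was 0% when no symbiotic peak was allowed there, by construction, 8.61% with lists of equal length, 10.8% and 0% with the folds, and 14.98% to 24.7% without 1 library. The share with summits within 50 bp was 55.9%, 82.0% and 100% at a -log10 q of 2, 5 and 10, 67.3% with peaks within 200 bp merged, 67.5% at equal length, 83.2% with 50% overlap, 92.3% and 100% with the folds, and 63.2% to 77.3% without 1 symbiotic library, since both aposymbiotic lists are needed for it. The share with a symbiotic peak within 1 kb was 73.2% at a -log10 q of 2 and 54.5% at 10. It was 58.6% with peaks within 200 bp merged, 0% by construction with none allowed, 78.4% with summit windows of 200 bp, 35.7% at equal length, 58.5% and 28.6% with the folds, and 32.3% to 72.3% without 1 library. Where no construction is named, the cause was not tested. Total depth is unknown, and where no peak was called the lists hold no value.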
